A study of Mus musculus with 5 samples.

Results

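The cells described here are 145 chondrocytes among Prx1-derived cells of mouse hindlimb muscle, chosen because they held at least 100 unique molecular identifiers (UMIs, counts of captured mRNA molecules) of *Col2a1*. They came from 1 of 5 single-cell RNA-seq (scRNAseq) libraries, named SC9, and made up 8.28% of its 1752 retained cells (7.03 to 9.67, exact Clopper-Pearson 95% interval) and 145 of the 32547 retained cells of the series. A cell was retained if 350 to 8000 genes were detected in it and mitochondrial transcripts took less than 20% of its UMIs. They were set against 1207 retained cells of SC9 with fewer than 5 *Col2a1* UMIs and at least 1000 UMIs in all, called Col2a1-low cells below. Because *Col2a1* chose the cells, every other gene of the same cells is given as a description, with no test. SC9 is 1 library, so no value has a replicate check, no p-value is given, and intervals cover counting error only.

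The libraries were made from GFP+ cells sorted from skeletal muscle surrounding the tibia of Prx1Cre;mTmG mice on a C57Bl/6 background, aged 10 to 14 weeks. Muscle of 2 mice went into each library, without the bone surface or the marrow. In these mice Cre under the *Prx1* limb mesenchyme enhancer switches a membrane reporter at the Rosa locus from tomato to GFP, so GFP marks cells of limb mesenchymal descent and not a cell type. The deposited labels name uninjured muscle at d0 (SC3), d3 post-fracture (SC4), d5 post-fracture (SC5), d3 post-polytrauma (SC9) and d5 post-polytrauma (SC10). Fractures were non-stabilized tibial fractures, and polytrauma added crushing of the surrounding muscles to the fracture.

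The label of SC9 is in doubt, and with it that of SC5. SC9 holds 2001 cell barcodes, and the source data of the study list that same number of cells for d5 post-fracture, not for d3 post-polytrauma. The library is therefore called by its name, and no statement about day or injury is drawn from it. SC9 also shared 944 barcodes with SC10 and 0 with the other libraries. Of these, 888 held at least 10 times more UMIs in SC9, 4 held at least 10 times more in SC10, and 52 were less unequal. Among the chondrocytes 123 of 145 barcodes were present in SC10 as well, where they held 509 to 2299 UMIs (median 1147), with 35.7 to 57.1 times more UMIs in SC9 (median 48.2). The cells at issue were thus carried almost wholly by SC9, and where leaving out all shared barcodes took a called result of a gene or list below 2-fold or turned its direction, both values are given. Leaving out shared barcodes kept 22 of the 145 cells, the shallower ones, with a median of 22555 UMIs against 50831. Leaving them out only where they were less than 10 times deeper in SC9 kept all 145.

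Chondrocytes build cartilage. They secrete a network of type II collagen fibrils that also hold types IX and XI collagen, filled with aggrecan, a proteoglycan whose sulfated chains bind water, and the transcription factor SOX9 with SOX5 and SOX6 switches on the genes of this matrix. In endochondral bone repair, cartilage forms in the callus, its cells pass from dividing to hypertrophic chondrocytes under control of Indian hedgehog, parathyroid hormone-related peptide and FGF receptor signals, and bone then replaces it.

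The 145 cells were deep. They held 7513445 UMIs, 14319 to 112365 per cell with a median of 50831, and 3615 to 7885 detected genes with a median of 6298. The Col2a1-low cells held 39505872 UMIs with a median of 32604 per cell, so the chondrocytes were the deeper group. *Col2a1*, the single chain of type II collagen, had 100 to 2455 UMIs in the chondrocytes with a median of 364, or 0.133 to 3.7% of a cell's UMIs with a median of 0.86%. These cells carried 94.7% of the *Col2a1* UMIs of the library. Of the Col2a1-low cells 410 had no *Col2a1* UMI. Another 276 retained cells with fewer than 5 *Col2a1* UMIs had under 1000 UMIs and entered neither group, like the cells with 5 to 99 UMIs, and of the barcodes with 100 or more *Col2a1* UMIs 9 were not retained for more than 8000 genes and 4 for mitochondrial UMIs.

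**Figure D1:**
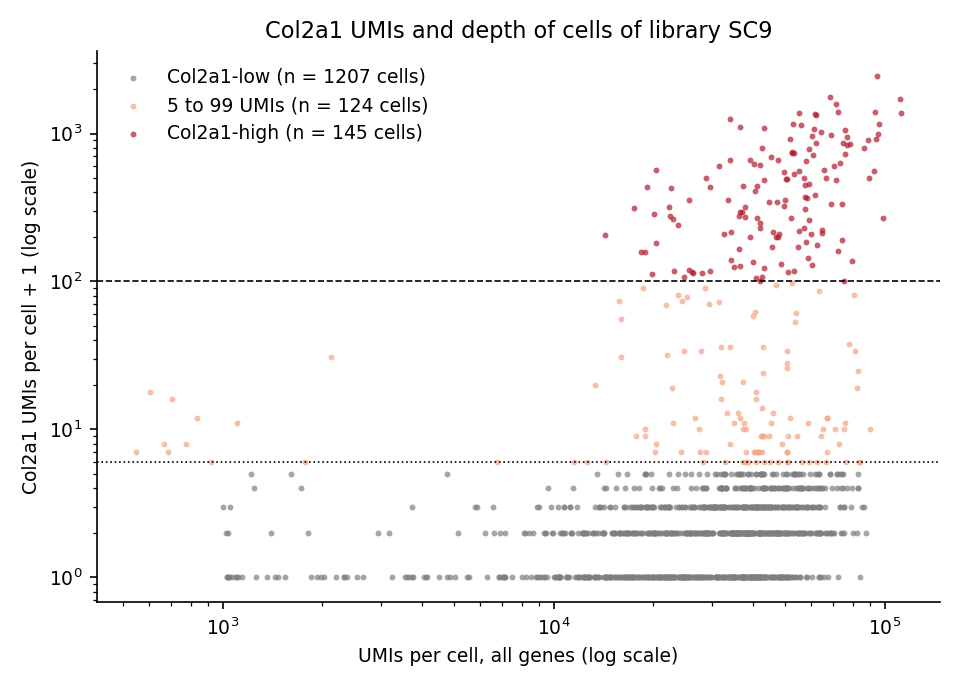
Each point is a retained cell of SC9, with its total UMIs on the x axis and its *Col2a1* UMIs plus 1 on the y axis, both log scales, coloured by group. The dashed line at 100 *Col2a1* UMIs is the one that chose the cells and the dotted line marks 5, and the 145 chosen cells have 14319 to 112365 UMIs.

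The cells on either side of the limit were compared by their summed levels. The 16 cells within 25 *Col2a1* UMIs inside it had 1702 CPM (UMIs of a gene scaled to 1000000 in all) of *Acan* and 632 CPM of *Matn3*. The 8 cells within 25 UMIs outside it had 1740 CPM of *Acan* and 398 CPM of *Matn3*. *Cnmd* was at 353 CPM inside and 183 CPM outside, and *Fgfr3* at 78.4 CPM inside and 106 CPM outside. In sum, *Acan* was thus near equal on the 2 sides, while *Matn3* and *Cnmd* were higher inside. *Col9a1* was at 538 CPM inside and 259 outside and *Ucma* at 397 and 53 CPM. The limit is a line drawn through a range of cells, and some cells with cartilage genes lie below it.

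Cells of this kind were found in SC9 and, more rarely, in SC10. SC10 held 52 cells that passed the same rule, 0.412% of its 12615 retained cells (0.308 to 0.54), and none of the 52 barcodes was shared with SC9. SC3, SC4 and SC5 held 0 such cells among 5367, 6086 and 6727, which allows shares of up to 0.0559%, 0.0493% and 0.0446%, and the highest *Col2a1* count in a cell there was 5, 34 and 2 UMIs. At the depth of SC3 most cells could not have reached 100 *Col2a1* UMIs at the median share of the chondrocytes, 0.86%. Since the libraries differ in depth (a median of 29727 UMIs per retained cell in SC9, 3328 in SC3, 16961 in SC4, 14945 in SC5 and 15115 in SC10), each cell was also thinned at random to 5000 UMIs. At that equal depth 119 of 1414 cells of SC9 had 20 or more *Col2a1* UMIs, against 59 of 10850 in SC10 and 0 of 918, 4907 and 5744 in SC3, SC4 and SC5, which allows up to 0.327%, 0.0611% and 0.0522%. Any *Col2a1* UMI at that depth was found in 31.9% of SC9 cells, 4.25% of 918 SC3 cells and 2.41% of SC10 cells, against 64.4%, 1.84% and 6.09% before thinning, so SC3 stood above SC10 by single UMIs at equal depth and below it by cells of high count. Summed over all retained cells, *Col2a1* stood at 1523 CPM in SC9, 79.57 in SC10, 7.803 in SC3, 0.8676 in SC4 and 0.1351 in SC5.

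The remaining markers of the cell type were high in these cells and lower in the Col2a1-low cells. *Acan* (chromosome 7, 79053483 to 79115099, plus strand, mm10), which encodes the aggrecan core protein, ranged from 819 to 7960 CPM per chondrocyte with a median of 2589, against a median of 93.3 CPM in Col2a1-low cells. Every chondrocyte had *Acan* UMIs, 4 of 1207 Col2a1-low cells lay above the chondrocyte median, and the summed level was 2879 against 242 CPM, 11.9-fold higher (11.6 to 12.2, exact counting interval). *Matn3* (chromosome 12, 8947929 to 8972028, plus strand), for matrilin 3, a protein that links collagen fibrils to aggrecan, ranged from 24.4 to 3281 CPM with a median of 985, and 0 Col2a1-low cells lay above that median. Its summed level was 1127 against 14.1 CPM, 79.8-fold higher (73.2 to 87.1).

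*Cnmd* (chromosome 14, 79637690 to 79662170, minus strand), for chondromodulin, a cartilage protein that restrains vessel growth, ranged from 0 to 3287 CPM with a median of 764. It had UMIs in 139 of 145 chondrocytes and 266 of 1207 Col2a1-low cells, of which 2 lay above the chondrocyte median, and it was 58.6-fold higher in sum (53.8 to 64). *Fgfr3* (chromosome 5, 33721674 to 33737068, plus strand), the FGF receptor of chondrocytes, ranged from 0 to 793 CPM with a median of 146. It had UMIs in 138 of 145 chondrocytes and 94 of 1207 Col2a1-low cells and was 55.8-fold higher in sum (46.1 to 68.2). The 4 markers beside *Col2a1* were thus each detected in at least 138 of the 145 cells, and for all 4 the range of the chondrocytes overlapped that of the Col2a1-low cells, which reached 3753 CPM for *Acan*, 693 for *Matn3*, 911 for *Cnmd* and 965 for *Fgfr3*. The Col2a1-low cells went down to 1004 UMIs, where a single UMI gives a CPM of that size. Such maxima can rest on a single UMI or a few, and are not read as levels.

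A low *Col2a1* signal was also present in cells of other types. After thinning to 5000 UMIs, *Col2a1* was detected in 17.7% of 1156 Col2a1-low cells, in 22.6% of 53 cells marked by hematopoietic genes and in 12.9% of 255 cells marked by mural genes, cell types that should lack it. The shares in Col2a1-low and mural-marked cells are capped, since both were chosen with fewer than 5 *Col2a1* UMIs, and the Col2a1-low group holds many of the marked cells, so *Col2a1* UMIs there are not read as expression. Median depths before thinning were 32604, 36938 and 40091 UMIs, and the marked cells also held mesenchymal RNA, so they are not clean negatives. *Fgfr3* was detected in 50.3% of thinned chondrocytes, 1.04% of Col2a1-low cells and 0% of hematopoietic-marked cells, and *Hapln1* in 90.3%, 3.11% and 5.66%. *Matn3* was detected in 95.9%, 6.4% and 3.77%.

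**Figure D2:**
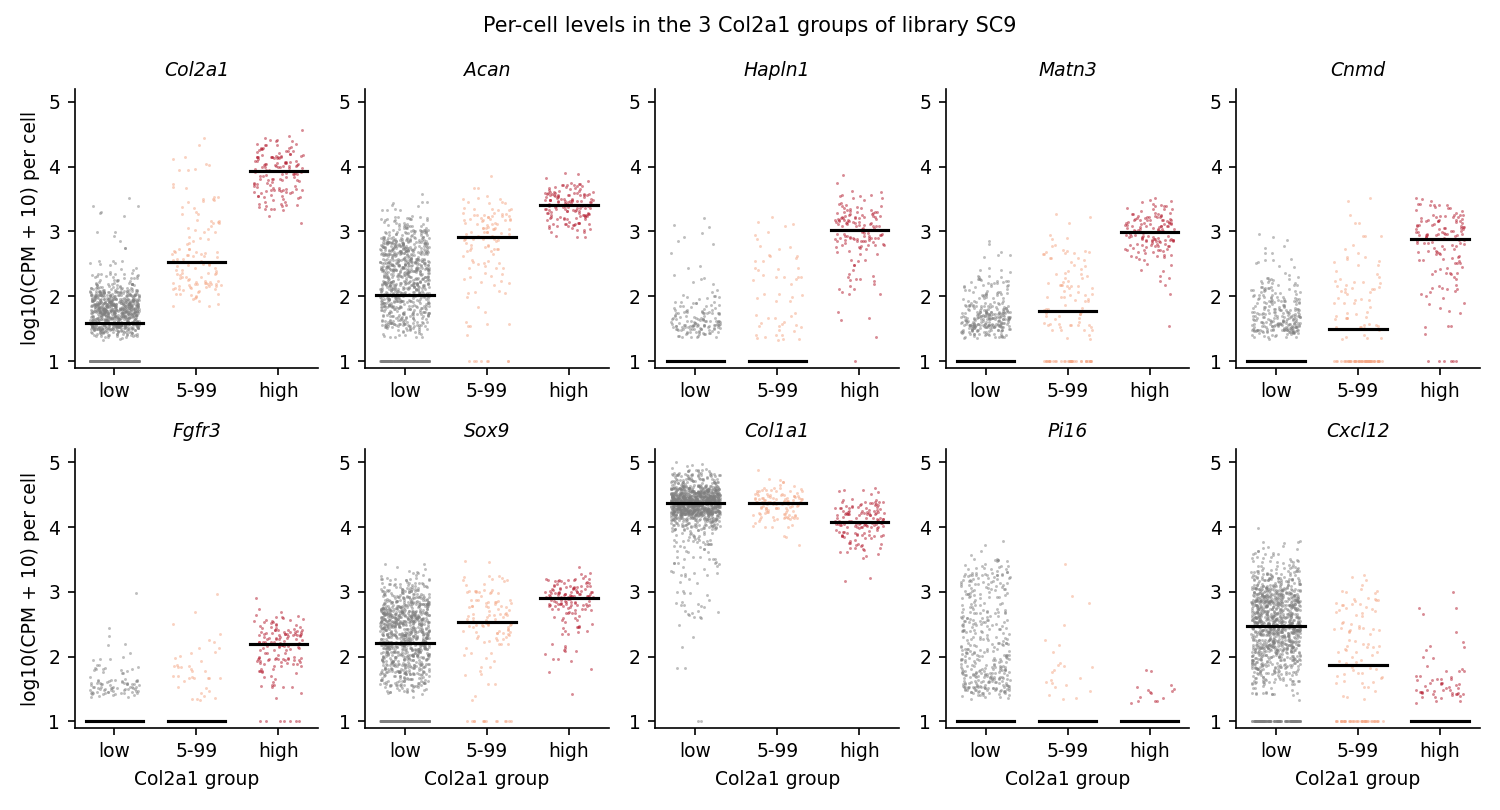
Each point is a cell of SC9, with log10(CPM + 10) on the y axis for 10 genes in Col2a1-low cells, cells with 5 to 99 *Col2a1* UMIs and Col2a1-high cells, and a black bar at the median. Cartilage genes sit high in the Col2a1-high cells, whose *Acan* median is 2589 CPM, while *Sox9* overlaps in part and *Cxcl12* and *Pi16* are mostly at 0 there.

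The stretches of DNA before the starts of 4 of these genes are shown because the genes move together and carry the contrast. They are the 250 bases before a RefSeq start on GRCm38.p6 (mm10), written 5′ to 3′ on the strand of the gene. Capitals mark ACAAT or its complement ATTGT, the core letters of SOX-family sites, searched on both strands. *Acan*, *Matn3* and *Cnmd* are markers of the cell type, and *Papss2*, which makes the sulfate donor for aggrecan chains, is shown at a start inside the gene because that stretch holds a match.
Acan, chr7:79052976-79053225, plus strand: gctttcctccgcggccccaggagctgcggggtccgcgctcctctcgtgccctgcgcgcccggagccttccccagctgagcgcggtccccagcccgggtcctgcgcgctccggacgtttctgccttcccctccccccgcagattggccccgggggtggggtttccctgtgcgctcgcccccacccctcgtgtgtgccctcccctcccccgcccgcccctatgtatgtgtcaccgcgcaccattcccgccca
Matn3, chr12:8947679-8947928, plus strand: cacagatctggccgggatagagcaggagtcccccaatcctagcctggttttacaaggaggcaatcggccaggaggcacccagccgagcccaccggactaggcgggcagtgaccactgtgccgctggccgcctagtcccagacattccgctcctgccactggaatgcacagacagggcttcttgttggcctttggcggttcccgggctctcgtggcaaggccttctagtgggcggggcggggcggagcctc
Cnmd, chr14:79662184-79662433, minus strand: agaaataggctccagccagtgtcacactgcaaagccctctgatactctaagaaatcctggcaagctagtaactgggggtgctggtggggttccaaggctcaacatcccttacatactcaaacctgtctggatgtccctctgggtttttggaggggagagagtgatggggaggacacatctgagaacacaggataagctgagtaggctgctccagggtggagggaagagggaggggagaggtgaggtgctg
Papss2, chr19:32619755-32620004, plus strand: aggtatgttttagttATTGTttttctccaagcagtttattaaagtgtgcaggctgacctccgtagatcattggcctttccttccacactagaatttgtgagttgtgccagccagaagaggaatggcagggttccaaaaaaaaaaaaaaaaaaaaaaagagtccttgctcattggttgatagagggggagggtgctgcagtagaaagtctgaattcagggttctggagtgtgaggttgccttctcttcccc
The 3 marker stretches hold no match to these letters and the *Papss2* stretch holds 1. Of the 21 genes looked for, the chondrocyte markers and the genes of highest ratio, 14 had an entry, with 18 starts, and 4 starts in 3 genes (*Hapln1*, *Papss2* and *Ncmap*) had a match. Over all 32851 promoter stretches of that length 27.7% had one. A pair of matches facing each other within 10 bases occurred in 0 of the 18 and in 0.466% of all. Bases G and C made up 74.4% of the *Acan* stretch, 65.2% of *Matn3*, 54% of *Cnmd* and 43.2% of *Papss2*, against a median of 52.4%. A match is a description of the letters, and its absence here says nothing of sites elsewhere, such as in introns.

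Across the transcriptome, a gene was called higher or lower where its summed CPM plus 5 differed at least 2-fold between chondrocytes and Col2a1-low cells, a rule of size and not a test. By this rule 752 of 19827 genes with a UMI were higher (3.79%) and 1215 were lower (6.13%), with a median log2 ratio over all genes of -0.01. Among 7975 genes at 10 CPM or more over the retained cells, 554 were higher (6.95%) and 1070 lower (13.4%). These shares are the background for the counts that follow, and since the rule that chose the cells used the same contrast, the counts describe the cells and test nothing.

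Among the 19 genes of highest ratio after *Col2a1*, 10 were in the lists of cartilage collagens and cartilage matrix proteins. They began with *Hapln1*, *Col9a3*, *Snorc*, *Ucma*, *Col11a2*, *Matn3*, *Scrg1*, *Col9a1* and *Cnmd*, followed by *Smpd3*, which encodes a sphingomyelinase of mineralizing skeleton, *Fgfr3*, *Trpv4*, a calcium channel of chondrocytes that responds to mechanical load, *Cd24a*, *Fam180a*, *Papss2*, *Ncmap*, *Panx3*, a channel protein of maturing chondrocytes, *Col9a2* and *Stk26*. *Smpd3* stood at 178 CPM in chondrocytes and 1.9 in Col2a1-low cells, *Trpv4* at 157 and 3.01, and *Cd24a* at 754 and 33. At the other end the 10 genes of lowest ratio were *Ccl2*, a chemokine that draws monocytes, *Nov*, *Eln*, *Pi16*, *Ifi27l2a*, *Rgs5*, *Clec3b*, *Cxcl12*, *Sfrp4* and *Slfn5*. *Ccl2* had UMIs in 33 of 145 chondrocytes and 514 of 1207 Col2a1-low cells, and was 37.8-fold lower in sum (6.79 against 257 CPM, 28.7 to 50.8). *Eln*, for elastin, had a log2 ratio of -4.40, and *Nov* stood at 2.79 against 160 CPM.

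**Figure D3:**
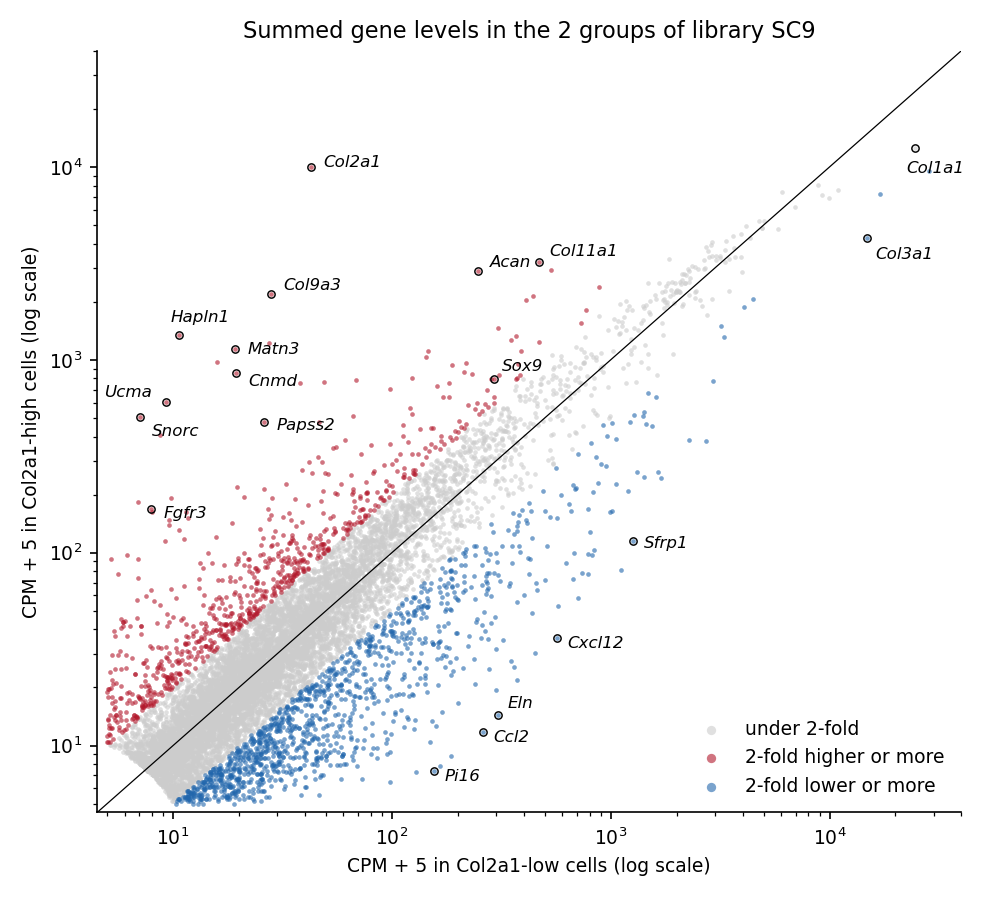
Each point is a gene with a summed level of at least 5 CPM in SC9, with CPM + 5 in Col2a1-low cells on the x axis and in Col2a1-high cells on the y axis, both log scales, and the diagonal marks equal levels. Cartilage genes such as *Hapln1* (1344 against 5.59 CPM) lie far above the diagonal and *Pi16* (2.4 against 150 CPM) far below it, while *Col1a1* lies just within 2-fold.

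Besides *Col2a1*, which chose the cells, all 6 collagens of the cartilage fibril were higher, with a median log2 ratio of 4.73. They were *Col9a3* (2176 against 23 CPM, 94.5-fold), *Col11a2* (971 against 10.9, 88.8-fold), *Col9a1* (1218 against 22.5, 54.2-fold), *Col9a2* (762 against 43.9, 17.4-fold), *Col11a1* (3202 against 464, 6.9-fold) and *Col27a1* (516 against 119, log2 ratio 2.08). *Col9a1*, *Col9a2* and *Col9a3*, the 3 chains of type IX collagen on the fibril surface, and *Col11a2* thus differed more than *Col11a1*. *Col9a3* ranged from 122 to 5233 CPM per chondrocyte with a median of 2070, and 0 Col2a1-low cells lay above that median. *Col11a1* had UMIs in 981 of 1207 Col2a1-low cells, of which 6 lay above the chondrocyte median of 3176 CPM. After thinning it was detected in 62.2% of Col2a1-low cells, 54.7% of hematopoietic-marked cells and 56.9% of mural-marked cells.

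Of 16 cartilage matrix proteins 11 were higher and 1 was lower, with a median log2 ratio of 2.62. That median was 5.45 over genes at 10 CPM or more and 3.29 with shared barcodes left out. *Hapln1* (chromosome 13, 89539796 to 89611652, plus strand), for the link protein that fixes aggrecan to hyaluronan, had UMIs in 144 of 145 chondrocytes, at up to 7375 CPM with a median of 1037, and in 155 of 1207 Col2a1-low cells. Its summed level was 240-fold higher (210 to 276). *Ucma*, for a small matrix protein of young cartilage cells, stood at 602 against 4.3 CPM, and *Snorc* (listed as 3110079O15Rik), for a membrane proteoglycan of chondrocytes, at 501 against 2.05 CPM. *Comp*, for a large protein that binds collagens in cartilage and tendon, was at 2042 against 404 CPM. The proteins below 2-fold included *Matn4* at 239 against 207 CPM, *Prelp* at 170 against 117 CPM and *Matn1* at 3.99 against 0 CPM. *Matn1*, a matrilin of mature cartilage, was thus near the limit of detection. *Cilp*, for a protein of the middle layer of articular cartilage and of fibrous tissue, was lower, at 22.1 against 179 CPM.

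Enzymes that supply sulfate and build chondroitin chains were higher in part. Of 24 genes of the list with a UMI, 8 were higher and 1 (*Ust*) lower, with a median log2 ratio of 0.55. *Slc26a2*, the sulfate carrier of the cell membrane, was at 470 against 41.5 CPM, and *Papss2*, which activates sulfate, at 472 against 20.9 CPM (22.6-fold). *Xylt1*, which adds the first sugar to the core protein, was at 208 against 20.9 CPM, *Chst11*, a chondroitin sulfotransferase, at 138 against 13.6, and *Slc35d1*, a carrier of nucleotide sugars into the endoplasmic reticulum, at 83.8 against 10.1. Among enzymes that lengthen the chain, *Chsy1* was at 170 against 106 CPM and *Csgalnact1* at 88.1 against 110 CPM. *Papss2* ranged from 17.5 to 1493 CPM per chondrocyte with a median of 413, and 5 Col2a1-low cells lay above that median.

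The enzymes that modify collagen were also higher in part, with 7 of 20 higher, 2 lower and a median log2 ratio of 0.59. *P3h2*, a prolyl hydroxylase that acts on cartilage and basement membrane collagens, was at 54.3 against 2.56 CPM, *Plod2*, a lysyl hydroxylase, at 1107 against 385 CPM, and *Loxl4* at 12.1 against 2.48 CPM. *Lox* and *Loxl1*, which crosslink collagen and elastin, were lower, at 209 against 684 CPM and 38.2 against 278 CPM. Of 23 genes of the secretory pathway 4 were higher and 1 was lower (median log2 ratio 0.32). *Creld2*, an endoplasmic reticulum chaperone, led them at 150 against 48.8 CPM, a log2 ratio of 1.52 that was 0.67 with shared barcodes left out.

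Among 12 chondrogenic transcription factors 6 were higher and 1 was lower, with a median log2 ratio of 1.15, or 0.92 with shared barcodes left out. *Sox9* ranged from 16 to 2371 CPM per chondrocyte with a median of 797, had UMIs in 971 of 1207 Col2a1-low cells, and 103 of those cells lay above the chondrocyte median. The summed level was 791 against 287 CPM, 2.76-fold higher (2.67 to 2.85). *Sox6* differed most, with a median of 117 CPM in chondrocytes, UMIs in 141 of 145 chondrocytes and 137 of 1207 Col2a1-low cells, and a summed level 22.6-fold higher (19.5 to 26.3). *Sox5* was at 88.8 against 22.4 CPM, and 117 Col2a1-low cells lay above its chondrocyte median. The 3 SOX genes were thus all higher in sum. *Sox9* and *Sox5* overlapped in part between the groups, with most Col2a1-low cells below the chondrocyte median. *Runx3*, a regulator of chondrocyte maturation, was at 51.1 against 3.21 CPM, *Runx2*, its relative, at 53.2 against 56.5 CPM, and *Barx2*, the 1 lower gene, at 2.53 against 15.1 CPM (log2 ratio -1.42, or -0.46 with shared barcodes left out). *Mef2c* and *Foxa3* had log2 ratios of 1.33 and 1.46, which were 0.95 and 0.78 with shared barcodes left out.

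Of 16 receptors and transducers of growth plate signals 3 were higher and 1 lower, with 5 above a log2 ratio of 0 and a median of -0.44. The higher genes were *Fgfr3*, *Pth1r*, the receptor of parathyroid hormone-related peptide (377 against 56 CPM, 6.73-fold), and *Ptch1*, the hedgehog receptor and itself a hedgehog target (78.8 against 21.3 CPM). *Gli1*, another hedgehog target, was at 5.86 against 5.7 CPM. *Fgfr1* was the 1 lower gene, at 52.8 against 234 CPM (4.43-fold lower, 4.01 to 4.91). Its median was 33.6 CPM in chondrocytes and 209 CPM in Col2a1-low cells, of which 1103 lay above the chondrocyte median. As a group, the cells with high *Fgfr3* thus had low *Fgfr1*. All 145 chondrocytes had *Pth1r* UMIs, 16.6 to 2109 CPM with a median of 277.

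Of 13 ligands 2 were higher and 5 lower. *Gdf5*, a ligand of the BMP family first known from joints, was at 32.1 against 1.16 CPM, and *Ihh*, Indian hedgehog, with 49 UMIs in 6 chondrocytes, had a log2 ratio of 1.18, or -0.05 with shared barcodes left out. The lower ligands were *Wnt5a* (8.65 against 44.4 CPM), *Bmp4* (2.66 against 21), *Nppc*, *Fgf18* and *Pthlh* (0.266 against 9.09). *Bmp4* did not keep a 2-fold difference with shared barcodes left out, at a log2 ratio of -0.89. Secreted BMP and Wnt inhibitors went in both directions, with 3 of 14 higher and 7 lower. *Frzb*, a Wnt-binding protein of cartilage, had UMIs in 135 of 145 chondrocytes and 150 of 1207 Col2a1-low cells, at 158 against 6.48 CPM in sum. Its relatives stood the other way, *Sfrp1* at 109 against 1260 CPM, *Sfrp2* at 239 against 1683 CPM and *Sfrp4* at 14.4 against 293 CPM. Within 1 gene family, *Frzb* and *Sfrp5* (7.32 against 0.203 CPM) were thus higher and the other 3 lower.

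Of 13 genes of hypertrophic cartilage 7 were higher and 1 was lower. The median log2 ratio was 1.18, and it was -0.13 with shared barcodes left out and 0.94 over genes at 10 CPM or more. *Panx3* had UMIs in 115 of 145 chondrocytes and 35 of 1207 Col2a1-low cells, at 92.5 against 1.16 CPM. *Sp7*, a transcription factor of osteoblasts and late chondrocytes, was at 59.1 against 2.96 CPM and had UMIs in 106 chondrocytes, and *Alpl*, the mineralizing phosphatase, was at 181 against 61.8 CPM. *Mmp13*, a collagenase of terminal chondrocytes, was lower, at 7.19 against 121 CPM, with UMIs in 22 chondrocytes.

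Few cells held most UMIs of *Col10a1*, *Ihh*, *Ibsp* and *Spp1*. *Spp1*, osteopontin, had UMIs in 96 of 145 cells, but 67.6% of its 2300 UMIs lay in 10 cells. *Col10a1*, the collagen that defines hypertrophic chondrocytes, had 97 UMIs in 12 of 145 chondrocytes, with 97.9% of them in 10 cells. *Ihh* had 49 UMIs in 6 cells, all of which also had *Panx3* and *Pth1r* UMIs, and 2 of which had *Col10a1*. With shared barcodes left out, the log2 ratio of *Col10a1* went from 1.77 to -0.10. *Ibsp*, bone sialoprotein of mineralizing cells, had 1978 UMIs in 41 cells, of which 78.9% lay in 10 cells, and 19 cells (13.1%) had 10 or more. No cell held *Col10a1* together with 10 or more *Ibsp* UMIs. The summed *Ibsp* level of 263 against 33.8 CPM rests on those few cells, and its log2 ratio turned from 2.79 to -2.30 with shared barcodes left out. The 19 cells with 10 or more *Ibsp* UMIs had *Pth1r* at 688 CPM and *Spp1* at 979 CPM, against 335 and 216 CPM in the other 126.

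Markers of other cell types were examined as whole lists. Of 11 osteoblast genes 4 were higher (*Smpd3*, *Sp7*, *Ibsp* and *Alpl*), 3 of which also stand in the hypertrophic list, while the late osteoblast and osteocyte genes *Bglap2* and *Dmp1* were at 0 and *Bglap* at 0.266 CPM in the chondrocytes. All 5 myogenic genes (*Pax7*, *Myf5*, *Myod1*, *Chrna1* and *Cdh15*) were at 0 in the chondrocytes, so no muscle cell signal was detected at this depth. They summed to only 0.405 CPM (16 UMIs) in the Col2a1-low cells, so their absence is not particular to the chondrocytes. The 7 hematopoietic genes summed to 2.53 CPM in chondrocytes and 17.2 CPM in Col2a1-low cells, with *Ptprc*, *Itgam* and *Tyrobp* at 0 and *Cd68* the most abundant at 1.46 CPM. The 5 endothelial genes summed to 1.6 and 11.8 CPM, with *Cdh5*, *Emcn* and *Kdr* at 0, and the 1 lower gene, *Tek*, had a log2 ratio of -1.30, or -0.45 with shared barcodes left out. Of 7 tendon genes *Fmod* was higher (951 against 212 CPM), *Tnmd* (45.8 against 131, log2 ratio -1.42, or -0.37 against cells with 0 *Col2a1* UMIs and -0.74 with shared barcodes left out) and *Thbs4* (176 against 418) were lower, and *Scx* was at 49.1 against 41.4 CPM. *Prg4*, lubricin of the joint surface, was at 30.3 against 74.2 CPM (log2 ratio -1.16, or -0.72 at an equal depth of 5000 UMIs), and of 6 articular genes 2 were higher and 3 lower. Of 4 adipocyte genes with a UMI 2 were lower, *Lpl* (10.2 against 105 CPM) and *Fabp4* (log2 ratio -1.32, or -0.42 without mural and hematopoietic cells in the comparison), and *Adipoq* had no UMI in either group. The 4 erythroid genes were below 1 CPM in the chondrocytes.

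Mural cells were part of the comparison group. Of 8 mural genes 6 were lower, among them *Rgs5* (2.26 against 123 CPM) and *Myh11*. When cells marked by genes of these same mural and hematopoietic lists were taken out of the Col2a1-low cells, the log2 ratio of *Rgs5* went from -4.14 to 0.12, that of *Myh11* from -2.74 to 0.22, and the median of the list from -1.83 to -0.07. *Cspg4*, the NG2 proteoglycan, which chondrocytes also make, was the 1 higher gene of the list, at 214 against 14.6 CPM.

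Of 18 fibrous matrix genes 8 were lower, 10 were within 2-fold and 0 were higher, with a median log2 ratio of -0.90. *Col1a1* was high in both groups, from 1480 to 39549 CPM per chondrocyte with a median of 12089 and with a median of 23566 CPM in Col2a1-low cells, and its summed level was 1.95-fold lower (1.94 to 1.96), within the 2-fold rule. *Col3a1* was at 4267 against 14747 CPM and *Fbn1*, for fibrillin, at 92.9 against 784 CPM. *Col6a1*, *Col6a2* and *Col12a1* were slightly higher, at 1363 against 1087 CPM, 1071 against 811 CPM and 971 against 748 CPM. *Col1a1* and *Col3a1* were detected in all thinned hematopoietic-marked cells as well, so their UMIs in a cell do not by themselves show expression.

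Of 13 progenitor genes 11 were lower and 0 higher, with a median log2 ratio of -2.92, against 6.13% of all genes. *Pi16*, a marker of adventitial fibroblasts, had UMIs in 15 of 145 chondrocytes, at up to 51.2 CPM, and in 401 of 1207 Col2a1-low cells, at up to 6034 CPM. *Cxcl12*, a chemokine of stromal cells, had UMIs in 57 chondrocytes and 1083 Col2a1-low cells, at 31.3 against 561 CPM in sum (17.9-fold lower, 15.8 to 20.5). *Cd34* was at 8.52 against 123 CPM, *Ly6a* (the surface protein Sca1) at 68.3 against 665 CPM and *Pdgfra* at 23 against 156 CPM. *Prrx1*, whose enhancer drives the Cre, was at 151 against 280 CPM, and *Twist2* at 6.39 against 11.2 CPM, both within 2-fold.

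Matrix proteases and their inhibitors were lower in 12 of 16 genes and higher in 0, with a median log2 ratio of -1.53. *Adamts4* and *Adamts5*, the aggrecan-cutting enzymes, were at 1.73 against 53.4 CPM and 13 against 115 CPM, and *Mmp2* and *Mmp14* at 383 against 1056 CPM and 193 against 588 CPM. Of 10 immediate early genes 9 were lower, led by *Zfp36* (158 against 988 CPM), with a median log2 ratio of -1.28 that was -0.75 with shared barcodes left out. Such genes also respond to tissue digestion, and the part of handling in this difference was not tested.

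Glycolysis genes were higher in SC9, with 11 of 17 higher, 1 lower and a median log2 ratio of 1.86. *Eno1* ranged from 147 to 4250 CPM per chondrocyte with a median of 1098, and 30 Col2a1-low cells lay above that median. In sum it was at 1464 against 302 CPM. *Pgk1* was at 938 against 183 CPM, *Ldha* at 1328 against 363 CPM and *Slc16a3*, a lactate carrier, at 254 against 38.3 CPM, while *Hk2* was the 1 lower gene, at 133 against 367 CPM. With each cell thinned to 5000 UMIs the median of the list was 1.70. With shared barcodes left out, the median of the list was 0.70, *Ldha* went from 1.86 to 0.70 and *Slc16a3* from 2.58 to 0.93. Among all 145 chondrocytes the summed level of the list was higher in deeper cells (Spearman rho 0.52 with UMIs per cell, 145 cells of 1 library). In SC10 the median was 0.51 with 0 of 17 genes higher. Of 11 hypoxia genes 5 were higher and 2 (*Adm* and *Ndrg1*) lower, with a median log2 ratio of 0.91, or 0.12 with shared barcodes left out. The higher genes included *Bnip3* (157 against 28.8 CPM, a log2 ratio of 2.26 that was 0.12 with shared barcodes left out) and *Car12* (114 against 20.9 CPM). In SC10, 1 of the 11 hypoxia genes was higher and 3 were lower, with a median of -0.27. The part of barcode sharing in these differences was not tested.

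Many of the chondrocytes held transcripts of dividing cells. Of 54 G2/M genes 44 were higher and 0 lower, with a median log2 ratio of 1.42, and of 43 S-phase genes 21 were higher and 0 lower, with a median of 0.92. The G2/M genes took 0.0351 to 2.5% of a chondrocyte's UMIs, with a median of 0.269% against 0.0706% in Col2a1-low cells. *Top2a*, a topoisomerase of mitosis, stood at 223 against 53.6 CPM and *Mki67* at 172 against 36.3 CPM. Split by count, 74 of 145 chondrocytes (51%) held 3 or more *Top2a* UMIs and 71 held fewer. Any such limit leaves cells on both sides, so the split does not show separate dividing and non-dividing kinds. The 74 cells had a median *Col2a1* share of 0.771% and a median of 57585 UMIs, against 1.02% and 47086 UMIs in the 71. Their *Acan* level was 2758 against 3032 CPM, *Matn3* 1138 against 1113 CPM, *Hapln1* 1143 against 1598 CPM, *Pth1r* 303 against 470 CPM and *Ibsp* 118 against 446 CPM. *Acan* and *Matn3* were thus near equal in cells with 3 or more and with fewer *Top2a* UMIs, and *Pth1r* was higher in those with fewer, as was *Ibsp* in sum, most of whose UMIs lie in 10 cells. Depth differed between them as well, and its part was not tested.

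Over bins of *Col2a1* UMIs, many cartilage genes were higher and several stromal genes lower, with marked steps in both between the bins of 5 to 19 and 20 to 99 UMIs. *Col2a1* itself went from 188 to 1320 CPM between those bins. Other cartilage matrix genes did not follow, with *Matn4* highest at 5 to 19 UMIs (323 CPM) and *Cilp* going from 207 CPM in the lowest bin to 16.7 CPM in the highest. The bins, of cells with at least 1000 UMIs, held 410 cells with 0 UMIs, 797 with 1 to 4, 80 with 5 to 19, 36 with 20 to 99, 60 with 100 to under 300 and 85 with 300 or more. *Acan* stood at 207, 254, 592, 1505, 1942 and 3372 CPM in that order. *Sox9* went from 264 to 295, 407, 630, 748 and 814 CPM, and *Sox6* from 4.03 to 6.17, 18.9, 74.6, 133 and 123 CPM. *Sox9* thus spanned about 3-fold from the lowest to the highest bin, and *Sox6* was level between the highest 2 bins.

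*Hapln1* was at 6.18, 5.38, 14.8, 174, 862 and 1598 CPM, *Ucma* at 3.47, 4.61, 18.6, 152, 332 and 744 CPM and *Fgfr3* at 3.47, 2.71, 5.53, 49.8, 115 and 188 CPM. The largest ratio between neighbouring bins was, for these 3 genes, that from 5 to 19 to 20 to 99 UMIs. *Cxcl12* was at 596, 548, 377, 45.5, 59.1 and 16.7 CPM and *Sfrp1* at 1190, 1286, 1332, 332, 169 and 78 CPM, with the largest ratio between the same bins. *Col1a1* stayed at 24677, 24485, 24507 and 21099 CPM over the lowest 4 bins and was 15457 and 11085 CPM in the highest 2. *Col3a1* was lower from bin to bin, at 15778, 14365, 12330, 7549, 5219 and 3767 CPM. *Col1a1* was thus nearly level up to 99 *Col2a1* UMIs and *Col3a1* was not. *Top2a* was at 29.7, 62.4, 144, 173, 218 and 226 CPM. The bins differ in depth, with median UMIs of 24174.5, 36163, 41152.5, 33092, 41596.5 and 57366 per cell, and they are bins of cells of 1 library and not steps in time.

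**Figure D4:**
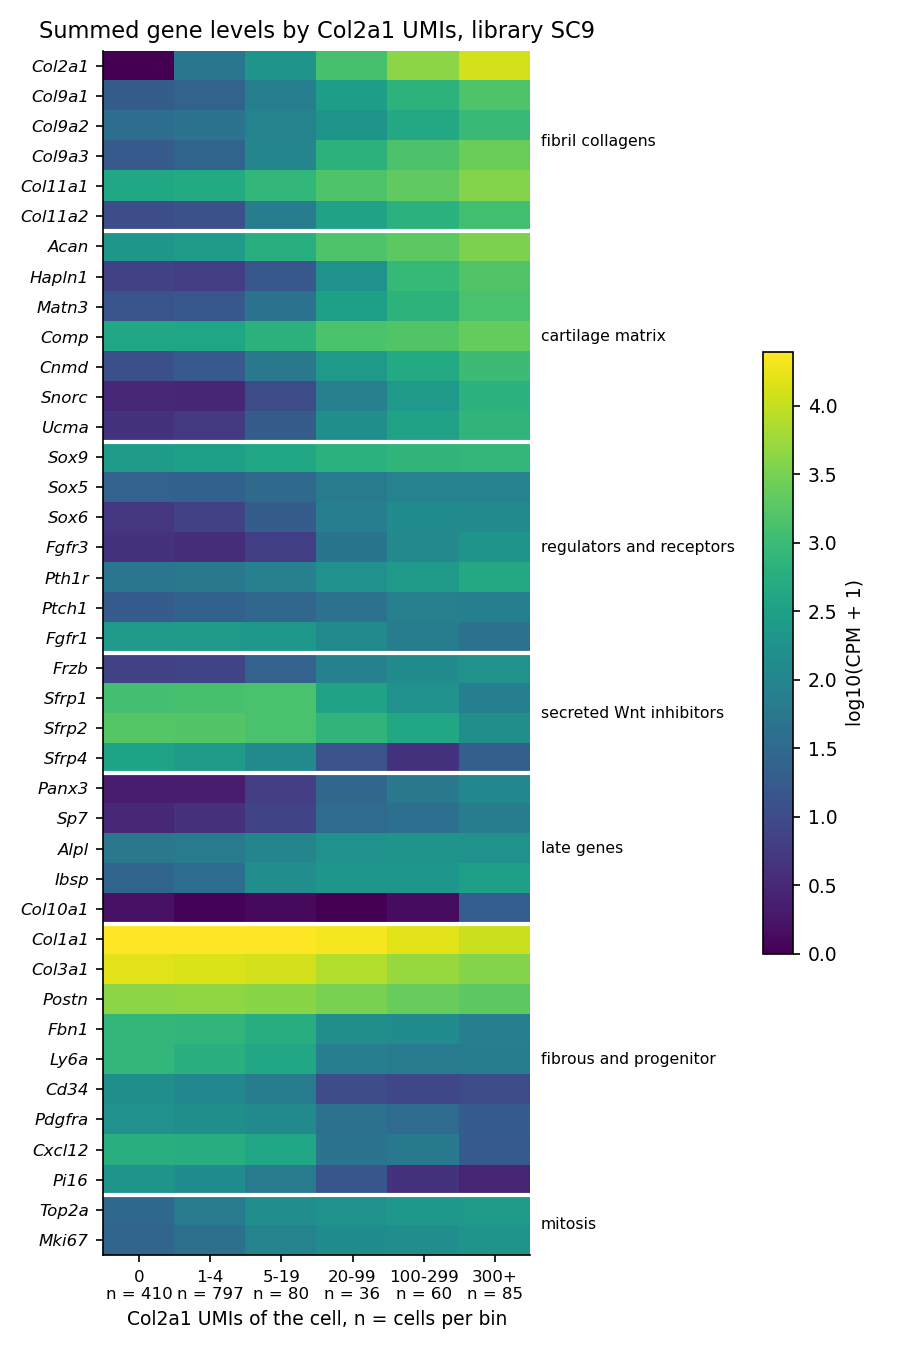
Colour gives log10(CPM + 1) of 40 genes in rows, for SC9 cells grouped in columns by *Col2a1* UMIs, with n the number of cells per bin (36 to 797). Many cartilage genes brighten from left to right, *Acan* from 207 to 3372 CPM. Several progenitor genes and *Sfrp1*, *Sfrp2* and *Sfrp4* are darker from the bin of 20 to 99 UMIs on than before it. For some the fall starts earlier, as for *Sfrp4*, at 357 CPM in the first bin and 122 CPM at 5 to 19 UMIs. *Col10a1* is highest in the last bin, at 19.5 CPM.

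Among the 145 chondrocytes, many matrix genes varied with *Col2a1* and others did not. The cells were split by their *Col2a1* share of UMIs into a lowest group of 49 (1328 to 5843 CPM), a middle group of 48 (5991 to 11810 CPM) and a highest group of 48 (11815 to 37003 CPM), whose median depths were 47883, 50497 and 52513.5 UMIs. With *Col2a1* taken out of the totals, *Col9a1* stood at 547, 1226 and 1921 CPM in the 3 groups and *Cnmd* at 364, 861 and 1340 CPM. *Acan* was at 1949, 2807 and 3978 CPM and *Pth1r* at 207, 352 and 584 CPM. *Col10a1* was at 0.815, 3.54 and 35.2 CPM and *Panx3* at 35.9, 97.9 and 147 CPM, so both were highest in the group of highest *Col2a1* share, *Col10a1* through few cells.

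The SOX genes did not follow, and other transcription factors of the list did in part. *Sox9* was at 745, 840 and 812 CPM in the same 3 groups and *Sox6* at 135, 109 and 140 CPM. Over the 145 cells, which share 1 library, Spearman's rho with the *Col2a1* share was 0.79 for *Col9a1*, 0.78 for *Col11a2*, 0.62 for *Hapln1*, 0.60 for *Matn3*, 0.60 for *Cnmd* and 0.59 for *Acan*. It was 0.34 for *Comp*, 0.34 for *Prelp*, 0.20 for *Matn4* and -0.25 for *Cilp*, and 0.08 for *Sox9*, 0.05 for *Sox5* and 0.02 for *Sox6*. *Foxa3* was at 0.408, 4.72 and 21.7 CPM (rho 0.35), *Shox2* at 141, 138 and 216 CPM (rho 0.25), *Mef2c* at 180, 257 and 260 CPM (rho 0.16) and *Runx2* at 49.7, 63.7 and 47.5 CPM (rho -0.01). *Aspn*, for asporin, a small proteoglycan of fibrous tissue, was at 780, 378 and 234 CPM (rho -0.52). *Col1a1* was at 15061, 11920 and 11197 CPM (rho -0.11).

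The 52 Col2a1-high cells of SC10 gave a second set of cells of the same kind, whose barcodes the first set did not hold. They were compared with 11754 Col2a1-low cells of SC10 by the same rule, with median depths of 24344.5 and 15783 UMIs, and 465 of 20961 genes were higher (2.22%) and 849 lower (4.05%). Of the 752 genes higher in SC9, 313 were also higher in SC10 (41.6% of the SC9 genes and 67.3% of the SC10 genes), and of the 1215 lower genes 651 (53.6% and 76.7%). The rule on *Col2a1* is the same in both libraries, so the shared genes are a description of cells chosen alike.

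The genes that marked SC9 chondrocytes most also marked those of SC10. Of the 19 genes of highest ratio in SC9 after *Col2a1*, 19 were at least 2-fold higher in SC10, with log2 ratios from 3.89 to 8.22 and a median of 5.80, and of the 10 of lowest ratio 7 were lower. *Acan* was at 2606 against 56.9 CPM in SC10, *Hapln1* at 1702 against 0.716 CPM, *Col9a3* at 1895 against 2.09 CPM and *Matn3* at 600 against 2.77 CPM. *Sox9* was at 366 against 123 CPM, a log2 ratio of 1.53 beside 1.45 in SC9. The 6 fibril collagens other than *Col2a1* were again all higher, with a median log2 ratio of 6.21 beside 4.73, and the progenitor genes had a median of -1.93 beside -2.92.

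Other genes stood differently in SC10. *Matn4* was at 164 against 15.3 CPM there (log2 ratio 3.06) and at 239 against 207 CPM in SC9 (0.20), so that its level in the chondrocytes was similar and that in the remaining cells was not. *Prelp* was at 301 against 33.2 CPM in SC10 and 170 against 117 CPM in SC9. *Ibsp* was at 970 against 10.6 CPM in SC10, with UMIs in 11 of 52 cells, and *Col10a1* at 102 against 0.11 CPM, with UMIs in 13 of 52 cells. The hypertrophic list had a median log2 ratio of 2.85 in SC10, with 7 of 13 genes higher and 3 lower. The G2/M list had a median of 0.17 there, beside 1.42 in SC9, with *Top2a* at 149 against 129 CPM. The summed level of that list was 3633 CPM in the Col2a1-high cells of SC10 and 5092 CPM in those of SC9. In the Col2a1-low cells it was 3288 CPM in SC10 and 1604 CPM in SC9. None of these differences between the libraries was tested, since each library is 1 sample, and library, depth and comparison cells cannot be told apart.

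**Figure D5:**
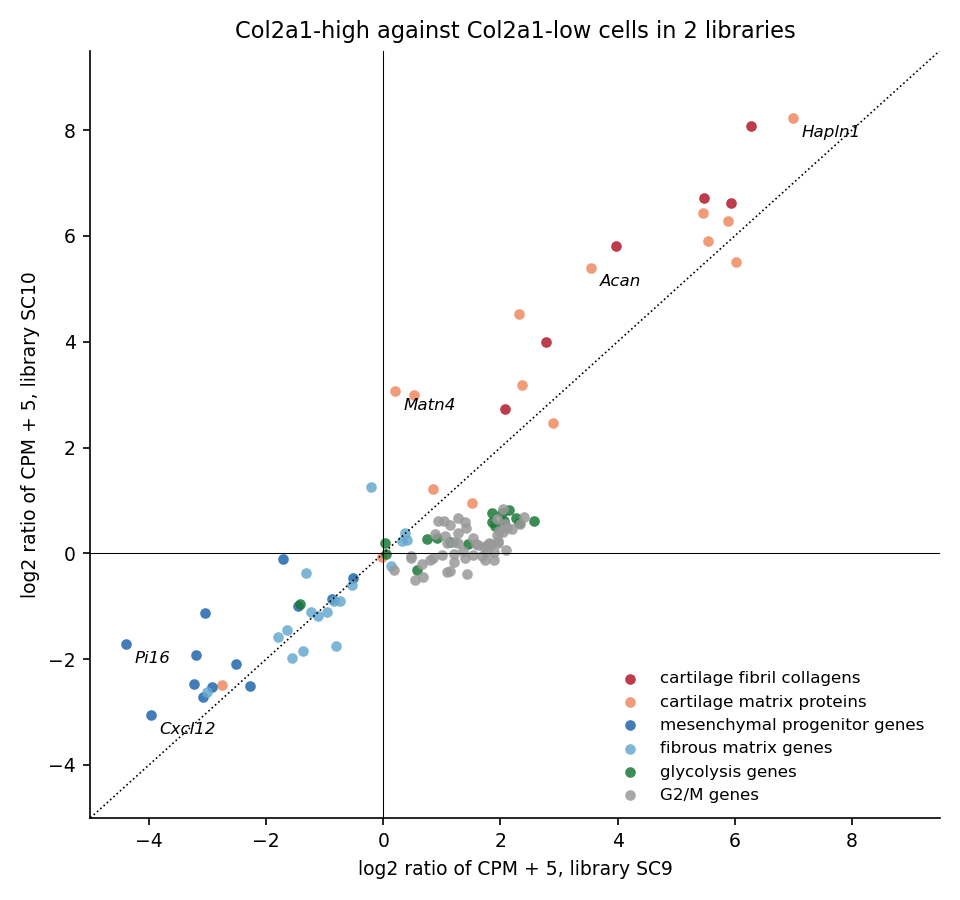
Each point is a gene of 6 lists, with the log2 ratio of CPM + 5 between Col2a1-high and Col2a1-low cells in SC9 on the x axis and in SC10 on the y axis, without *Col2a1*, and the dotted line marks equal ratios. Cartilage and progenitor genes lie in the same direction in both libraries, while glycolysis genes (medians 1.86 and 0.51) and G2/M genes (1.42 and 0.17) lie near 0 on the SC10 axis.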

How the data were processed

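Libraries were made with the Chromium 3′ v2 kit. Per the submitters' processing notes and the study's methods, the authors aligned reads to mm10 with Cell Ranger (3.1.0 in the matrix headers, a later version in the methods) and used Seurat 3.1.2, and they deposited raw counts, the UMIs of each gene in each barcode, not normalized. SC9 held 56084145 UMIs, SC10 204474562, SC3 18247307, SC4 100403837 and SC5 103780343.

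UMIs were summed over the cells of a group, scaled to CPM, and compared as the log2 ratio of CPM + 5. With 1 library per label there was no test, and 2-fold was a rule of size. Intervals are exact Poisson or Clopper-Pearson intervals at 95%, a share of 0 allows up to 3 counts, and both cover counting error only. For shares of cells, each cell was thinned at random to 5000 UMIs, and shallower cells were left out. Cells marked by mural or hematopoietic genes were used as background types. Doublets were kept and left out as an alternative, at 0.8% per 1000 cells by Scrublet score. Gene positions are those of GENCODE for GRCm38 and promoter stretches those of RefSeq (GRCm38.p6). Computations used scanpy 1.11.5, pandas 2.3.3, scipy 1.17.1, numpy 2.4.6 and matplotlib 3.10.9 under Python 3.11.15, and the scripts were checked on simulated counts.

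The members and the gene lists were chosen with earlier results of these data known. Genes were named where they were chondrocyte markers, among the 20 of highest or 10 of lowest ratio, among the 3 of largest ratio in a list, or needed to state a value of 0 or one under 2-fold. Genes named for their place in a pathway beyond that rule were chosen after their values were seen. Alternatives changed the comparison cells, the limit on *Col2a1*, the scaling, the pseudocount, the filter on low values and the cell filters.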

Additional observations from a re-analysis of the deposited data

Results flagged for a closer look

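The member barcodes were also found in SC10, which the comparisons in SC9 do not use. There, 123 of the 145 barcodes held 1373 *Col2a1* UMIs, 8.43% of the 16280 of that library, at 9543 CPM. The retained SC10 cells with unshared barcodes stood at 72.1 CPM and the same barcodes in SC9 at 10047 CPM. The SC10 copies held 1.96% of the *Col2a1* UMIs and 2.07% of all UMIs that the barcodes held in SC9, and the *Col2a1* counts of a barcode in both libraries went together (Spearman rho 0.90 over 123 barcodes). A shared barcode was more frequent in deep cells, at 61% of retained SC9 cells with at least 5000 UMIs and 95.8% of those with at least 60000. None of these copies reached the limit of 100 *Col2a1* UMIs in SC10, where the highest had 56, so the 52 Col2a1-high cells of SC10 hold none of them. How the barcodes came to be in both libraries was not tested.

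Only 4 genes passed 2-fold in opposite directions in the SC9 and SC10 contrasts, and the difference was not tested. *H2-Ab1*, an MHC class II gene, had a log2 ratio of 1.52 in SC9, with UMIs in 18 of 145 chondrocytes while *Cd74*, its usual partner, had UMIs in 1, and of -1.88 in SC10, and the SC9 value was 0.16 with shared barcodes left out. *Hspa1a*, a heat shock gene, had -1.80 in SC9 and 1.11 in SC10. *Mustn1* had -2.06 in SC9 and 1.02 in SC10, and -0.61 in SC9 without mural and hematopoietic cells in the comparison. *Ndufa4l2*, a hypoxia-responsive gene, had 1.61 in SC9, or -0.14 with shared barcodes left out, and -1.11 in SC10.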

How the results depend on the processing

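With a pseudocount of 1 CPM, 1183 genes were higher and 2232 lower, and over the other alternatives the counts were 554 to 909 and 1070 to 1521. The share of chondrocytes in SC9 was 6.34% with a limit of 200 *Col2a1* UMIs, 6.05% when chosen by a *Col2a1* share of at least 0.5%, and 2.63% (22 of 838 cells) with shared barcodes left out. With shared barcodes left out, the hypertrophic median was -0.13 and the log2 ratios of *Ibsp*, *Col10a1*, *Ihh* and *Ndufa4l2* were -2.30, -0.10, -0.05 and -0.14. When they were left out only where less than 10 times deeper in SC9, a choice made after seeing the data, all 145 members stayed. The medians were then 1.86 for glycolysis, 1.18 for hypertrophic and 0.91 for hypoxia genes. They were 1.15 for transcription factors and -1.29 for immediate early genes, all near the main values. Without mural and hematopoietic cells in the comparison, an alternative chosen after seeing the data, *Rgs5* was 0.12 and *Myh11* 0.22. Of 1978 alternative values of named genes past 2-fold 1954 kept that side, and of 187 list medians 181 did. Many of these genes were named for large ratios and most alternatives reuse the same cells, so this is no independent check. By the narrower measure of the counting interval, 575 of 2534 named-gene values and 92 of 472 list medians moved outside it. A further 6 and 1 turned direction. Shares of cells with a marker UMI moved in 16 of 20 values at other thinning depths. Removing 25 possible doublets took 2 members. No paired analysis was possible because each label has 1 library and no test was made. *Ihh* and *Col10a1* rest on 49 and 97 UMIs in the members. The causes of these changes were not tested.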
